A study of Homo sapiens with 6 samples.

Results

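The urokinase plasminogen system was followed in 6 RNA-seq libraries through 9 genes. These were PLAU with its receptor PLAUR, the second plasminogen activator PLAT, the inhibitors SERPINE2 and SERPINB2, the matrix proteases MMP1 and MMP14, and the metalloproteinase inhibitors TIMP1 and TIMP2. They are 9 of the 62438 genes in the count table, all 9 were found there, and all 9 passed the filter on low counts that left 17320 genes for testing. The genes were listed by name. PLAU headed the list because its expression was already known to be clearly lower after N6AMT1 knockdown in these same libraries, so the difference between groups is given for the 9 genes as a description, with no p-value. The other 8 were set beside it for their roles.

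The cells carried the label MDA-MB-453, which names a line from human breast cancer. They received siRNA at 10 nM for 48 h, either against N6AMT1 (si-N6AMT1, 3 libraries) or scrambled (si-CN, 3 libraries). N6AMT1 encodes a methyltransferase that the study examines as a writer of DNA 6mA. Both groups came from the same line and received the same transfection reagent. A single knockdown reagent was compared with a single control, so an effect of its sequence on other transcripts and an effect of lower N6AMT1 cannot be told apart. Whether the triplicates were separate cultures is not given, so errors and tests measure the spread between these libraries, which may be technical.

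Urokinase is a secreted serine protease that cleaves plasminogen to plasmin. Its receptor, a protein anchored in the plasma membrane by a lipid, holds it at the cell surface. Plasmin digests fibrin and matrix proteins and can activate several matrix metalloproteinases, which in turn cleave collagens. Serpins trap urokinase and tissue activator by a suicide mechanism, while TIMPs block metalloproteinases. In breast carcinoma the system is known for its part in invasion, and urokinase is an established prognostic marker.

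The libraries held 19739247 to 21289740 counts, and 1 CPM (the count scaled to a fixed library total) was worth 19.6 to 21.2 counts. N6AMT1 itself had 2.93 to 3.53 CPM in si-N6AMT1 and 6.65 to 6.93 CPM in si-CN libraries. Its log2 fold change (log2FC, si-N6AMT1 against si-CN throughout) was -1.10 ± 0.119 (SE, the standard error). The cells carried only part of the markers that go with their label. The apocrine and luminal markers PIP and TFF3 had no count in any library. Of the 12 luminal and apocrine markers, 6 reached 1 TPM in si-CN, whereas all 8 basal and mesenchymal markers did. The 6 were KRT8 (748 TPM), KRT18 (725 TPM), XBP1 (98.2 TPM), ERBB2 (26.2 TPM), FOXA1 (5.34 TPM) and GATA3 (1.92 TPM). KRT5 stood at 763 TPM, KRT17 at 4175 TPM, CAV1 at 735 TPM and VIM at 652 TPM in si-CN libraries. For this reason the cells are called by their label only. Among markers of fibroblasts, endothelium and immune cells, PTPRC, CD3E and CDH5 had at most 3 counts in any library, and CD68, a lysosomal protein as well as a macrophage marker, was the only one called among the 3 tested (141.9 ± 0.334 CPM in si-CN, 201.0 ± 4.48 CPM in si-N6AMT1; SD, n = 3 for each). Summed over the 9 matched genes of that list, levels were 199.5 to 205.1 TPM in si-CN and 270.2 to 287.1 TPM in si-N6AMT1, a sum made up almost wholly of CD68 (185.1 and 261.7 TPM). COL1A1 had 17.2 TPM in both groups. The part of CD68 in the results below was not tested.

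Short sequences in the 3′ untranslated regions (UTRs) of the mRNAs are shown first, because the 9 genes differ in them. The UTR is the stretch after the stop codon, where small RNAs and RNA-binding proteins act on an mRNA. UTRs were read from the reference transcript of each gene in GENCODE v44 on GRCh37, the build the authors used (hg19). TTCACAT and TCACATA were searched on the transcript strand, since an earlier scan of these same libraries had picked them by their association with lower expression. A match is therefore a description and not independent of the contrast. PLAU was the only one of the 9 genes to hold both, joined in 1 site of 8 bases that lies at position 755 of its 929-base UTR, in the last exon (exon 11) of the gene. PLAT held TTCACAT alone, and the other 7 genes held neither. The second search was for TTATTTATT, a nonamer of AU-rich elements, which mark many short-lived mRNAs for decay. It was found once in PLAUR and once in SERPINB2. The shorter ATTTA within it was more common, with 4 matches each in PLAT, SERPINB2 and TIMP2 and 3 in MMP1. PLAU and SERPINE2 held 2 each, PLAUR held 1, and MMP14 and TIMP1 held none. The 8-base site and the nonamers read as follows, 5′ to 3′ on the strand of the mRNA, with the matched bases in capitals.
PLAU (chr10:75677068-75677095, plus strand): cagtttcactTTCACATAgatgtccctt
PLAUR (chr19:44152754-44152780, minus strand): atattcataTTATTTATTttatactta
SERPINB2 (chr18:61570807-61570833, plus strand): tttactttgTTATTTATTattttatat

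The 8-base site of PLAU was present in 4.65% of the 13208 tested protein-coding genes with a UTR sequence (614 genes), and in 1.67% of the 1495 whose UTR length was within 20% of that of PLAU. Of the 614 genes, 254 were called lower and 25 higher, but the sequence had been picked on these same libraries. Among all 17320 genes tested, 11.5% were lower and 9.78% higher. That is a wider set, with genes that have no UTR sequence, and shares among the 13208 genes or at like UTR length were not computed. Among the 614 genes, SAE1 and UBE2E3 alone had a larger fall than PLAU, by 1.00 and 0.95 on the log2 scale. These names were picked after their values had been seen. SAE1 encodes a subunit of the SUMO-activating enzyme and UBE2E3 a ubiquitin-conjugating enzyme. At least 1 of TTCACAT and TCACATA was present in 22.3% of these UTRs, and in 10.6% of those near PLAU in length. The nonamer was present in 9.72% of the 13208 UTRs. By composition, the UTR of SERPINB2 was the richest in A and U (71.5%) and that of MMP14 the poorest (40.7%), with 52.0% in PLAU. UTR length ran from 98 bases in TIMP1 to 2690 bases in TIMP2.

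The 9 genes spanned a wide range of levels in control cells. Levels of different genes were compared per length, as TPM (counts divided by the length of the reference transcript and scaled to a fixed total). In si-CN libraries TIMP1 was highest, with 374.7 ± 8.13 TPM (SD, n = 3 here and below), followed by SERPINE2 with 332.3 ± 4.18 TPM. PLAUR had 248.7 ± 4.24 TPM, TIMP2 235.3 ± 6.19 TPM and MMP14 205.4 ± 6.90 TPM. PLAU followed with 149.9 ± 1.06 TPM and MMP1 with 70.1 ± 1.99 TPM. SERPINB2 and PLAT were far lower, at 11.8 ± 1.06 TPM and 5.05 ± 0.405 TPM. No neighbours in this order had overlapping ranges over the 3 si-CN libraries. The order of the means was the same in si-N6AMT1 libraries, but there PLAU, at 83.1 ± 1.89 TPM, overlapped MMP1, at 80.9 ± 2.08 TPM, and PLAUR, at 251.5 ± 8.79 TPM, overlapped TIMP2, at 250.0 ± 5.74 TPM. Levels per length rest on 1 transcript per gene. With the longest transcript in its place, SERPINE2 dropped from rank 2 to rank 6, at 156.8 TPM, and TIMP2 moved from rank 4 to rank 2, at 298.7 TPM.

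**Figure D1:**
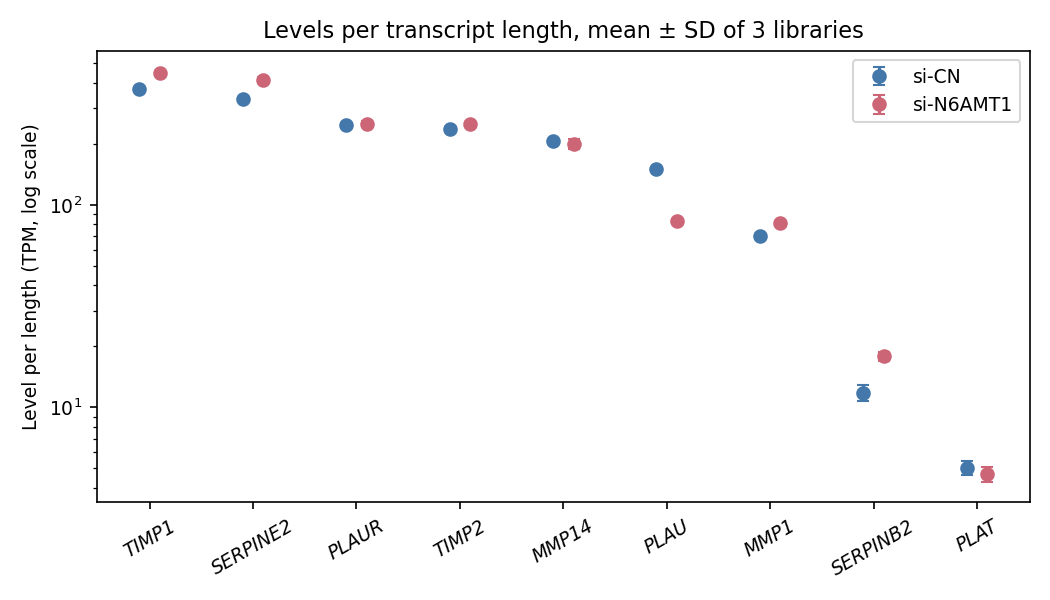
Level per transcript length (TPM, log scale) of the 9 genes, ordered by their level in si-CN, as mean ± SD of 3 libraries for si-CN (blue) and si-N6AMT1 (red). PLAU had 149.9 TPM in si-CN and 83.1 TPM in si-N6AMT1, where it overlapped MMP1, while SERPINB2 and PLAT lay well below the other genes in both groups.

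PLAU, the urokinase gene (ENSG00000122861, chromosome 10, 75668935 to 75677254 on the plus strand of GRCh37), had 158.8, 157.8 and 157.1 CPM in si-CN replicates 1 to 3. In si-N6AMT1 replicates 1 to 3 it had 84.7, 88.6 and 89.8 CPM. All 3 knockdown libraries lay far below all 3 controls, with group means of 87.7 ± 2.67 and 157.9 ± 0.863 CPM. The log2FC was -0.85 ± 0.0278 (SE), so PLAU fell by 44.4%. The underlying counts ran from 1679 to 1842 in the knockdown and from 3107 to 3332 in the controls. In bulk RNA, fewer cells with a transcript and less transcript per cell cannot be told apart. Among the 1993 genes called lower over the whole table, 12 had a larger fall than PLAU, and of those only SAE1 also had at least 100 CPM in si-CN. PLAU was chosen for its fall in these same libraries, so its place among them is a description only. Levels other than 100 CPM were not tried. The median log2FC of the genes called lower was -0.18. Left-out libraries moved the value of PLAU little, between -0.86 and -0.82.

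A lncRNA gene, C10orf55, overlaps the PLAU locus on the opposite strand over 7528 bases. It had 17 to 30 counts per library, and its log2FC was 0.06 (SE 0.283, edgeR FDR = 0.917). The library kit keeps the strand but the strand setting of the counting is not given, so an exchange of counts between this pair was not tested. At the other loci, 10 further annotated genes overlapped PLAUR, TIMP1, TIMP2, MMP1 or SERPINB2. Those of them in the count table had at most 14 counts in any library.

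**Figure D2:**
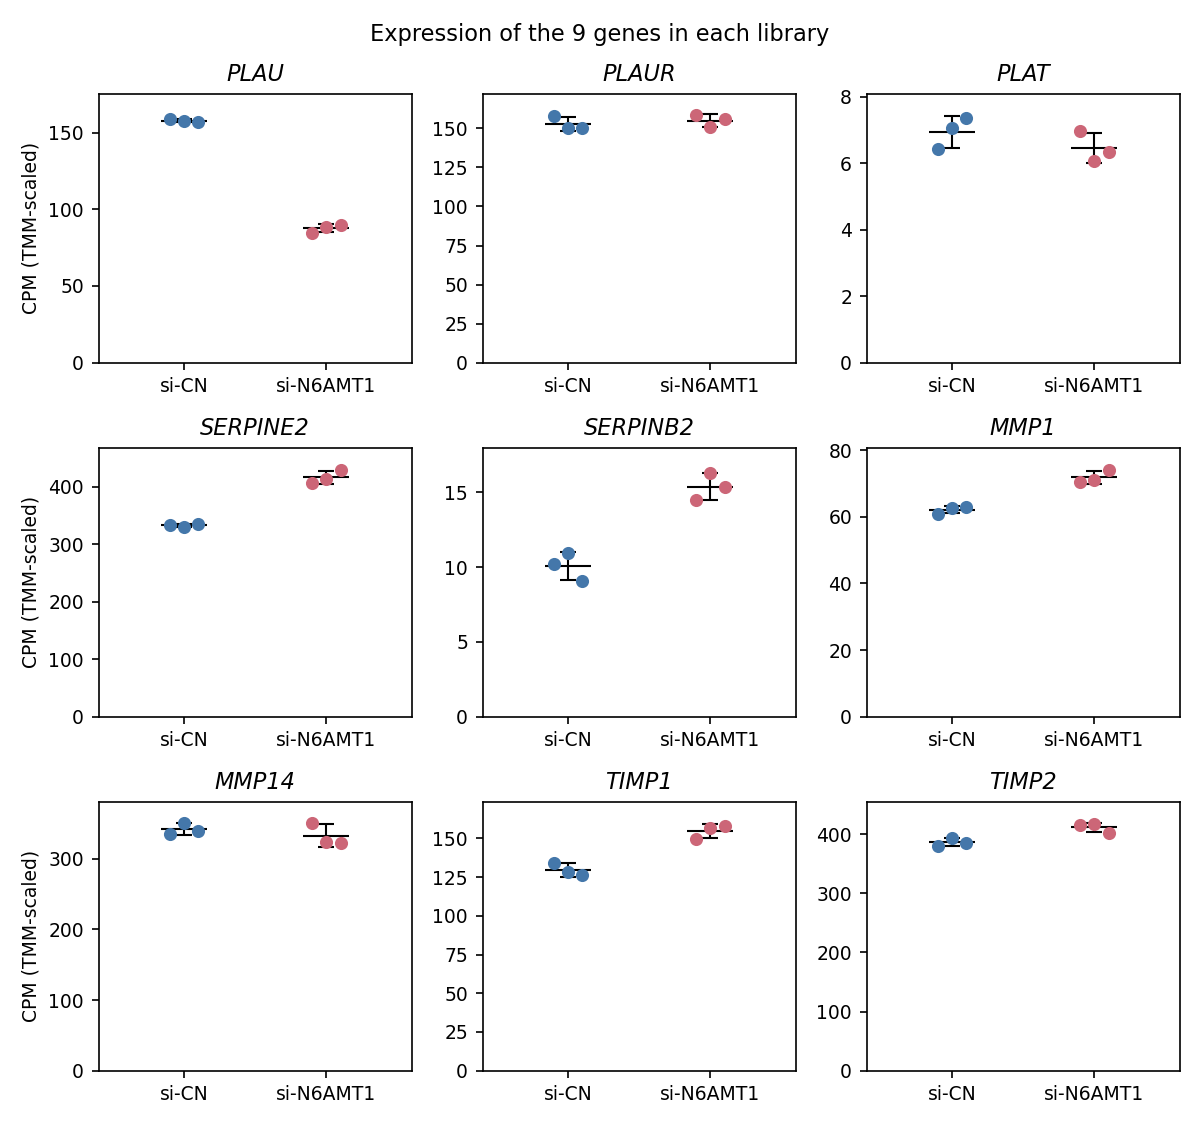
Expression (CPM, TMM-scaled, axes from 0) of the 9 genes in each of 3 si-CN (blue) and 3 si-N6AMT1 (red) libraries, with mean and SD as black bars. PLAU was lower in all 3 si-N6AMT1 libraries, SERPINE2, SERPINB2, MMP1, TIMP1 and TIMP2 were higher in all 3, and the groups overlapped for PLAUR, PLAT and MMP14.

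Of the 9 genes, 1 was called lower (PLAU) and 5 higher at FDR under 0.05 over all 17320 genes tested, and the same 6 had groups that did not overlap. Over the whole table, 11.5% of genes were called lower and 9.78% higher, and the groups did not overlap in 18% (lower) and 16.8% (higher). Since the list was drawn up with this contrast known, these counts are given for orientation only. The median log2FC of the 9 genes was 0.09, beside 0.00 over all genes tested.

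The receptor gene was not called. PLAUR (ENSG00000011422, chromosome 19, 44150247 to 44174699, minus strand) had 158.2, 150.4 and 150.5 CPM in si-CN replicates 1 to 3 and 158.7, 150.7 and 155.7 CPM in si-N6AMT1. Both groups covered nearly the same range. The log2FC was 0.02 (SE 0.0278), with a 95% interval of -0.04 to 0.07. Per length, PLAU had 0.603 ± 0.0144 of the level of PLAUR in si-CN and 0.331 ± 0.0167 in si-N6AMT1 libraries (SD, n = 3). PLAT (ENSG00000104368, chromosome 8, 42032236 to 42065227, minus strand), tissue plasminogen activator, had 6.42, 7.06 and 7.36 CPM in si-CN and 6.96, 6.07 and 6.34 CPM in si-N6AMT1 libraries, which overlap. Its log2FC of -0.11 (SE 0.102) had an interval from -0.31 to 0.09, on 124 to 156 counts per library. A fall as large as that of PLAU lies outside this interval. PLAU was 29.8 ± 2.28 times as abundant as PLAT per length in si-CN and 17.8 ± 1.69 times in si-N6AMT1 libraries.

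Both serpins among the 9 genes were higher after knockdown. SERPINE2 (ENSG00000135919, chromosome 2, 224839762 to 224904035, minus strand) encodes protease nexin 1, which inhibits urokinase, tissue activator and thrombin. It had 333.2, 330.3 and 334.4 CPM in si-CN replicates 1 to 3 and 406.2, 413.9 and 428.7 CPM in si-N6AMT1. All si-N6AMT1 libraries lay above all si-CN libraries, with a log2FC of 0.32 (SE 0.0231), or 1.25-fold. SERPINB2 (ENSG00000197632, chromosome 18, 61538926 to 61571122, plus strand) encodes plasminogen activator inhibitor 2 and had 10.2, 10.9 and 9.10 CPM in si-CN and 14.5, 16.3 and 15.4 CPM in si-N6AMT1. Its groups were also separate, and its log2FC of 0.61 (SE 0.0810), or 1.53-fold, was the largest rise of the 9. It came from a low level, 193 to 215 counts in the controls and 287 to 333 in the knockdown.

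Of the matrix proteases, MMP1 was higher and MMP14 was not called. MMP1 (ENSG00000196611), interstitial collagenase, had 60.9, 62.6 and 62.8 CPM in si-CN replicates 1 to 3 and 70.5, 70.9 and 74.1 CPM in si-N6AMT1. Its groups did not overlap, and the log2FC was 0.21 (SE 0.0341). MMP14 (ENSG00000157227, chromosome 14, 23305769 to 23318250, plus strand) is a membrane-anchored metalloproteinase that activates pro-MMP2 together with TIMP2, and it had 334.8, 351.1 and 339.4 CPM in si-CN and 351.3, 324.5 and 321.8 CPM in si-N6AMT1 libraries. Its highest value of all was in si-N6AMT1 replicate 1, whereas the other two si-N6AMT1 libraries lay below every control. The log2FC was -0.04 (SE 0.0285), with a 95% interval of -0.10 to 0.02. Without si-N6AMT1 replicate 1 it was -0.08 and the gene was called lower, which makes 2 of the 9 genes called lower in place of 1.

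Both TIMPs among the 9 genes were higher. TIMP1 (ENSG00000102265, chromosome X, 47441807 to 47446188, plus strand), a broad inhibitor that also binds pro-MMP9, had 134.5, 128.2 and 126.1 CPM in si-CN replicates 1 to 3 and 149.8, 157.1 and 157.8 CPM in si-N6AMT1, a log2FC of 0.26 (SE 0.0292). TIMP2 (ENSG00000035862, chromosome 17, 76849059 to 76921469, minus strand) had 380.5, 392.9 and 385.7 CPM in si-CN and 415.2, 416.8 and 402.2 CPM in si-N6AMT1. Groups were separate for both genes, but the change of TIMP2 was small, at 0.09 on the log2 scale (SE 0.0224). Per length, MMP14 had 0.873 ± 0.00779 of the level of TIMP2 in si-CN and 0.798 ± 0.0340 in si-N6AMT1 libraries. For MMP1 relative to TIMP1 the values were 0.187 ± 0.00921 and 0.181 ± 0.00422, which overlap between groups.

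How far the rest of the system moved was read from 48 further genes, listed by function. Of these, 29 were tested, and 4 were called lower and 9 higher (13 of 29), where the whole table had 21.3% called in either direction. The test can call smaller changes at high counts, such as ENO1 (log2FC -0.11 at 3443 CPM in si-CN). Shares among genes of like expression were not computed. The lists were written with earlier results of these data known, so these counts are given for orientation only. The median log2FC of the 29 was 0.06. Among 22 other genes of the plasminogen system, 13 were tested, with 2 lower and 3 higher, beside 11.5% lower and 9.78% higher over the whole table. PLG, plasminogen itself, had only 3 to 9 counts per library and was not tested. VTN, vitronectin, the matrix ligand of the urokinase receptor, had at most 3 counts.

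ANXA2, annexin A2, which binds plasminogen and tissue activator at the cell surface, was higher (1639 to 1709 CPM in si-CN, 1826 to 1849 CPM in si-N6AMT1; log2FC 0.13, SE 0.0200, edgeR FDR = 4.31e-05). Its partner S100A10 did not pass the test (log2FC -0.04, FDR = 0.213). CTSB, cathepsin B, which can activate pro-urokinase, was higher by 0.12 on the log2 scale (SE 0.0197, edgeR FDR = 0.000120). SERPINI1, neuroserpin, an inhibitor of tissue activator, was higher with a log2FC of 0.48 (SE 0.110, FDR = 0.00269), from 5.06 ± 0.618 to 7.03 ± 0.158 CPM. In the other direction, IGF2R, a receptor that binds the urokinase receptor, was lower, with 204.7 ± 5.29 CPM in si-CN and 177.8 ± 1.39 CPM in si-N6AMT1 (log2FC -0.20, SE 0.0250, FDR = 2.25e-06). ENO1, alpha-enolase, a glycolytic enzyme that also binds plasminogen, was lower with a log2FC of -0.11 (SE 0.0182, FDR = 0.000147). LRP1, the endocytic receptor that clears complexes of urokinase with its inhibitors, did not pass (log2FC -0.04, SE 0.0314, FDR = 0.463). The 5 genes named as called kept that call under every alternative that was run.

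**Figure D3:**
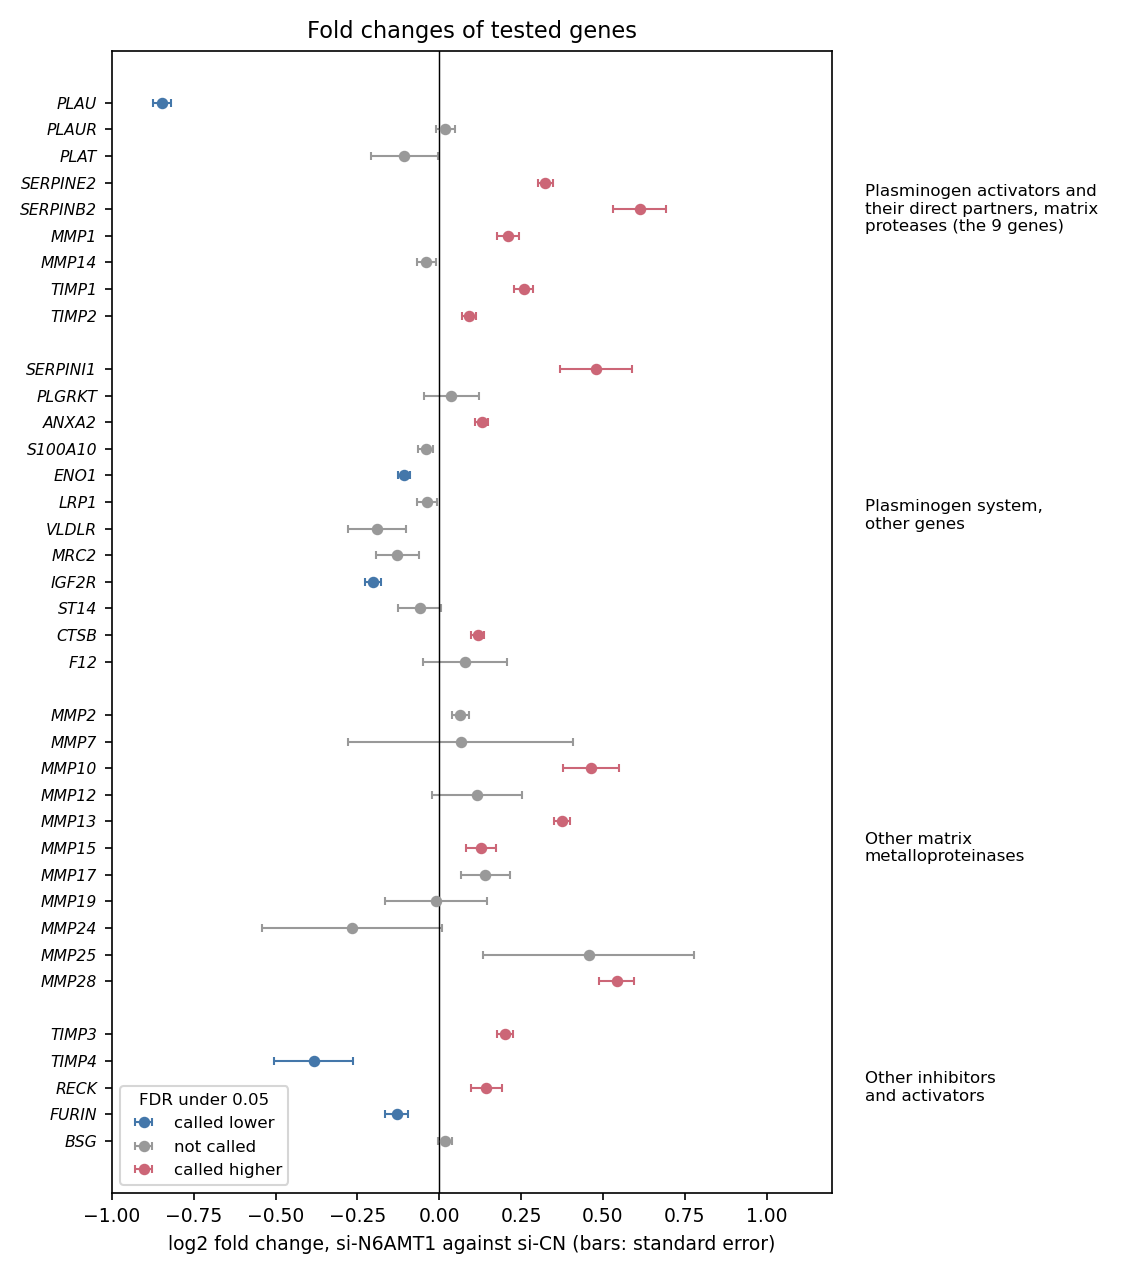
Log2 fold change (si-N6AMT1 against si-CN, bars are standard errors) of the 9 genes and of 28 tested genes of the wider system, coloured by the call at FDR under 0.05 in edgeR. PLAU had the lowest value, at -0.85, and SERPINB2, at 0.61, and MMP28, at 0.54, the highest.

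Of 21 other matrix metalloproteinases, 11 were tested, and 4 were called higher and 0 lower by edgeR. Over all genes tested, 9.78% were called higher and 11.5% lower, so 0 lower among so few genes is close to that share. DESeq2 and limma-voom also gave 0 lower, as did edgeR at an unadjusted p under 0.05. MMP7, MMP24 and MMP25 had at most 22 counts in any library, which leaves little room for a call. MMP28, epilysin, rose most (21.9 ± 0.883 CPM in si-CN, 31.9 ± 1.18 CPM in si-N6AMT1; log2FC 0.54, SE 0.0525, edgeR FDR = 6.97e-08). MMP13, collagenase 3, was the most abundant of the 4, with 167.7 ± 2.35 CPM in si-CN and 217.4 ± 3.37 CPM in si-N6AMT1 libraries (log2FC 0.37, SE 0.0242, FDR = 1.06e-10). MMP10, stromelysin 2, had a log2FC of 0.46 (SE 0.0851, FDR = 0.000313), from 10.6 ± 1.11 to 14.7 ± 1.18 CPM. The call of MMP15 stood at the threshold (log2FC 0.13, FDR = 0.0463) and was lost under 10 of 11 alternatives, with FDR up to 0.284 and each left-out library among them. MMP2, gelatinase A, the substrate that MMP14 activates, was not called (log2FC 0.06, FDR = 0.0749), except without si-N6AMT1 replicate 1 (0.08, FDR = 0.0453). MMP9, gelatinase B, had at most 3 counts per library.

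MMP1, MMP10 and MMP13 lie in a cluster of metalloproteinase genes on chromosome 11, from 102391239 to 102826461 in GRCh37. The cluster holds 9 of the listed genes, of which 5 were tested, and no other gene in it passed the filter. Within this stretch of 435 kb, MMP10, MMP1 and MMP13 were called higher. MMP12 (log2FC 0.11, SE 0.137) and MMP7 (0.07, SE 0.343) were not called, both at low counts, 60 to 79 and 8 to 19 per library. The remaining MMP20, MMP27, MMP8 and MMP3 had at most 12 counts in any library and were not tested. Neighbouring genes of a cluster are not independent observations.

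**Figure D4:**
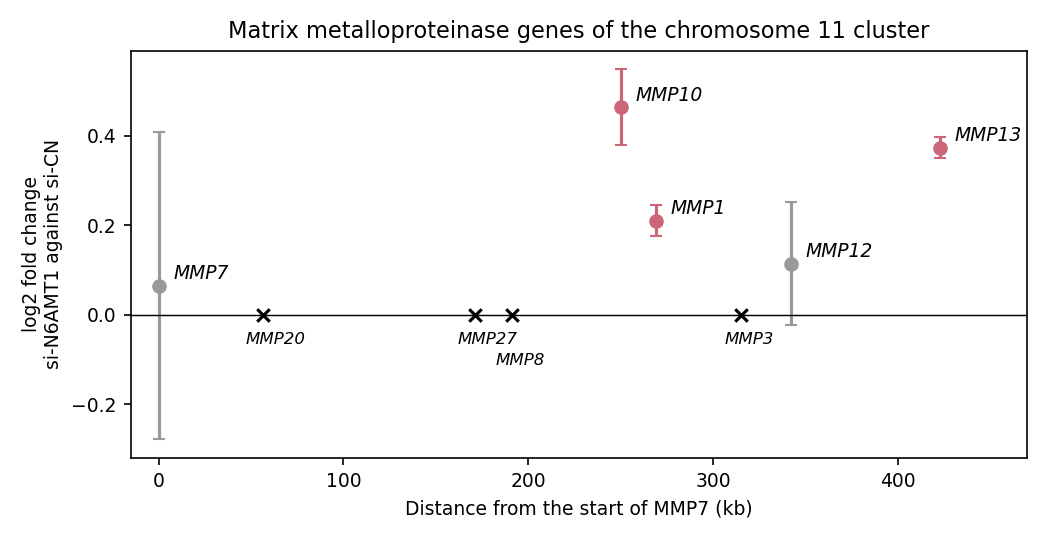
Log2 fold change (si-N6AMT1 against si-CN, bars are standard errors) of metalloproteinase genes along the chromosome 11 cluster, by distance in kb from the start of MMP7. Red points were called higher at FDR under 0.05, grey points were not called, and crosses on the zero line mark genes with too few counts to test. MMP10, MMP1 and MMP13 lay at 0.46, 0.21 and 0.37.

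Of 5 other inhibitors and activators of metalloproteinases, all were tested. TIMP3 was higher (232.4 ± 6.38 CPM in si-CN, 267.0 ± 5.56 CPM in si-N6AMT1; log2FC 0.20, SE 0.0251, edgeR FDR = 2.85e-06). RECK, a membrane-anchored inhibitor, was called higher at 0.14 (SE 0.0477, FDR = 0.0346), and FURIN, the convertase that cleaves pro-MMP14, lower at -0.13 (SE 0.0350, FDR = 0.00909). TIMP4 was called lower at -0.38 (SE 0.121, FDR = 0.0257) on 90 to 149 counts per library. BSG, basigin, an inducer of metalloproteinases, was not called (log2FC 0.02, FDR = 0.622). The calls of RECK, FURIN and TIMP4 did not hold throughout. RECK lost its call under 6 of 11 alternatives, among them without si-N6AMT1 replicate 2 (FDR = 0.125) or 3 (FDR = 0.123) and without si-CN replicate 2 (FDR = 0.147) or 3 (FDR = 0.0652). FURIN lost it under DESeq2 (adjusted p = 0.0844) and without si-N6AMT1 replicate 2 (FDR = 0.0612) or si-CN replicate 3 (FDR = 0.0624), and TIMP4 without si-N6AMT1 replicate 3 (FDR = 0.0983) or si-CN replicate 3 (FDR = 0.186). DESeq2 gave TIMP4 no adjusted p. TTCACAT or TCACATA, present in 22.3% of all UTRs searched, was found in 0 of the 4 list genes called lower and in 1 of the 9 called higher, CTSB.

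The genes whose pattern over the 6 libraries was most like that of PLAU were CDC6, GAS2L3, KDELR2, NMD3 and SDF4. Their Pearson correlations with PLAU, on log2 CPM among tested genes with a mean of at least 10 CPM, ran from 0.998 to 0.999 over 6 libraries. The 6 libraries are 2 groups of 3, so any gene with a clear difference between groups correlates with PLAU, and the values are a description. All 5 were lower in si-N6AMT1, by less than PLAU. NMD3, an export adaptor of the large ribosomal subunit, fell by 0.58 on the log2 scale and GAS2L3, a cytoskeletal linker, by 0.49. CDC6, a replication licensing factor, fell by 0.46, KDELR2, a retrieval receptor of the secretory pathway, by 0.41, and SDF4, a calcium-binding protein of the Golgi, by 0.34. GAS2L3, KDELR2 and NMD3 held the same 8-base site as PLAU in their UTRs, SDF4 held TCACATA alone, and CDC6 held neither sequence. Over the UTRs searched, 4.65% held the 8-base site and 22.3% at least 1 of TTCACAT and TCACATA. Those shares cover genes called or not and UTRs of any length, with a median of 1318 bases. Shares among genes called lower were not computed. UTR length was 3398 bases in GAS2L3, 2656 in CDC6, 2052 in KDELR2, 1397 in NMD3 and 581 in SDF4, against 929 in PLAU. The genes were picked by likeness to PLAU and the sequences by association with lower expression in these same libraries, so the matches are not independent.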

How the data were processed

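Reads were paired-end from a stranded mRNA kit, 3 libraries for each group. Per the study's methods, the authors trimmed them (Trim Galore v0.6.5), quantified GENCODE v33 transcripts on hg19 by kallisto v0.46.0, and added transcripts up to genes. The deposited table holds these estimated counts (expected counts) as whole numbers, without normalization. kallisto shares reads among similar transcripts, so counts of overlapping genes and close paralogs are uncertain.

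Here, genes were kept by edgeR's filter (minimum count 10), scaled by TMM and tested by edgeR v4.0.16 (quasi-likelihood, all 6 libraries, no covariate) in R v4.3.3, with FDR by Benjamini-Hochberg over 17320 genes and a threshold of 0.05. An SE is |log2FC| divided by the root of the F statistic, and a 95% interval spans 1.96 SE on either side. TPM used the reference transcript in GENCODE v44 on GRCh37, which matched 62149 identifiers. The other 289 took at most 0.137% of counts. The procedure was tested on simulated counts. No pair of replicates was a duplicate (chi-square per degree of freedom 1.37 to 1.77).

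The members and lists were chosen with earlier results of these data known. Named genes are the 9 members, N6AMT1, list genes that passed the test, PLG, genes overlapping a member, and the 5 genes most correlated with PLAU. Other names were added after values had been seen. A further listed gene and a marker, counted in the totals, are not reported here. The 6mA and qRT-PCR data were not analysed here.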

Additional observations from a re-analysis of the deposited data

How the results depend on the processing

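Alternatives were RLE size factors, DESeq2 v1.42.0, limma-voom from limma v3.58.1, no expression filter, the replicate number as a block, and each library left out in turn. Of 99 values for the 9 members, 98 kept the direction and the side of the threshold, the exception being MMP14. The alternatives are refits of the same libraries from which PLAU had been chosen, so this is a description and not independent support. Of the 13 list genes called, 9 kept their call under all of these alternatives. DESeq2 called 1142 genes lower and 799 higher, against 1993 and 1694 by edgeR, and the cause was not tested. It called 2 list genes lower against 4, since FURIN missed the threshold and TIMP4 got no adjusted p. N6AMT1 itself got no adjusted p from DESeq2 either, and was called lower under the other 10 alternatives. With left-out libraries, the count of genes called lower ran from 1540 to 1818 and of those called higher from 1295 to 1523. Members called lower ran from 1 to 2, and list genes called lower from 2 to 4, with 2 without si-CN replicate 3. With the replicate block, 1804 genes were called lower and 1522 higher, with 1 member lower and 5 higher, as without it. No si-N6AMT1 library correlated best with the si-CN library of its own number. Deviations of same-numbered libraries from their group means correlated at -0.12, -0.09 and 0.01, which gave no sign that the numbers pair the samples. With 3 libraries in each group, a weak pairing could go unseen. By transcript choice, PLAU in si-CN was 167.7 TPM with the longest transcript against 149.9 TPM. Among the 9 members, depth limits PLAT most, where 124 to 156 counts per library gave an SE of 0.102 on the log2 scale, against 0.0278 for PLAU.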
